A study of Mus musculus with 2 samples.

Results

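The genes described here are 10 members of the transforming growth factor beta (TGF-beta) pathway, chosen by symbol from the 32589 genes of the files. They are the ligand genes Tgfb1, Tgfb2 and Tgfb3, the kinase receptor genes Tgfbr1, Tgfbr2 and Acvrl1, the co-receptor genes Tgfbr3 and Eng, and the signal transducer genes Smad2 and Smad3. All 10 were found in the files, each on 1 row. Their transcripts were followed by cell type and by library in single-nucleus RNA sequencing (snRNA-seq) of the mouse heart, to see which cells could send the signal and which could receive it. The mice were C57BL/6 males that were 8 weeks old when the injections began. They either received anti-mouse PD-1 antibody (PD-1 inhibitor) at 5 mg/kg by intraperitoneal injection on days 1 and 14 of a 28-day cycle, or PBS on the same days. The antibody blocks PD-1, a checkpoint receptor of T cells, and the study asked how it affects the communication of cardiac cells with fibroblasts. Each condition gave 1 library, and the number of hearts behind a library is not given in the sources used here. With no replicates, no test was made between the conditions, and all intervals are 95% intervals that cover counting error only.

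The genes lie at the following places of GRCm38, the build named in the submitters' processing notes, by the GENCODE vM21 annotation. The ligand genes are Tgfb1 (chromosome 7, 25687002 to 25705077, plus strand), Tgfb2 (chromosome 1, 186622792 to 186705989, minus strand) and Tgfb3 (chromosome 12, 86056745 to 86079041, minus strand). The kinase receptor genes are Tgfbr1 (chromosome 4, 47353222 to 47414931, plus strand), Tgfbr2 (chromosome 9, 116084293 to 116175360, minus strand) and Acvrl1 (chromosome 15, 101128522 to 101145336, plus strand). The co-receptor genes are Tgfbr3 (chromosome 5, 107106570 to 107289629, minus strand) and Eng (chromosome 2, 32646595 to 32682669, plus strand). The transducer genes are Smad2 (chromosome 18, 76241580 to 76310963, plus strand) and Smad3 (chromosome 9, 63646767 to 63757994, minus strand). Genes with UMIs of their own overlap 3 members on the opposite strand. Ttll5 overlaps Tgfb3 and had 569 and 430 UMIs over all barcodes of the control and PD-1 inhibitor library, Fpgs overlaps Eng and had 301 and 199, and Gm29491 overlaps Tgfb2 and had 12 and 16, with a further 1 and 2 for Gm48008 at Tgfb3. Whether the counting used strand is not given in the sources used here, so UMIs of these pairs may be split uncertainly.

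TGF-beta ligands are secreted in a latent form bound to the matrix and must be released before they act. A released ligand binds TGFBR2, which recruits and phosphorylates TGFBR1 (ALK5), and TGFBR1 in turn phosphorylates SMAD2 and SMAD3, which enter the nucleus with SMAD4. Betaglycan, the product of Tgfbr3, presents the ligands and is needed above all for TGF-beta2, while endoglin, the product of Eng, assists the receptor ALK1, encoded by Acvrl1, in endothelial cells. In the heart the pathway is best known for driving fibroblasts to make collagen, and in the embryo for the formation of valves from the endocardium.

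The 250 bases before the transcript start of Tgfb1 and Tgfb2 are shown because these 2 ligand genes were found in different cell types. A further reason is that the study asked whether TCF12, a factor that binds the E-box CANNTG, acts on the TGF-beta1 promoter. The study reported binding there by chromatin immunoprecipitation in human coronary endothelial cells. The mouse windows below are therefore not the sequence that it tested. The sequences are from RefSeq on GRCm38.p6, read 5′ to 3′ on the strand of the gene in lower case, with each E-box in capitals. The Tgfb1 window is chr7:25686752-25687001 on the plus strand and the Tgfb2 window is chr1:186705990-186706239 on the minus strand.
Tgfb1: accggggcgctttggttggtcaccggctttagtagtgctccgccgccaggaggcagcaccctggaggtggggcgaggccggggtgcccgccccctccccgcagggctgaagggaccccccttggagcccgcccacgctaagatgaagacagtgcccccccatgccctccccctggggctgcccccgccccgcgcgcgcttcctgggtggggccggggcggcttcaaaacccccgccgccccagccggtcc
Tgfb2: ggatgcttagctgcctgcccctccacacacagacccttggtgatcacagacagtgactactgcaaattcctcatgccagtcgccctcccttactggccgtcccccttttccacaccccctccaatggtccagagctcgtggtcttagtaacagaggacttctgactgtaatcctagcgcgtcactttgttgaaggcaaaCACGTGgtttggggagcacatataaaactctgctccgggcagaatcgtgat
The Tgfb1 window has 75.2% G and C and 0 matches to CANNTG. The Tgfb2 window has 53.6% G and C and 1 match, the palindrome CACGTG, which begins 51 bases before the start. Of the 32851 promoter windows of the same length in the RefSeq table, 66.2% hold at least 1 CANNTG on either strand, 13% hold CAGCTG and 17.2% hold CACCTG on either strand. These are matches of letters in a short window and say nothing about binding. Of the other members, Tgfbr1, Tgfbr2, Eng and Smad3 have an entry in the table.

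The control library held 10197 barcodes with 13177525 unique molecular identifiers (UMIs), each of which counts 1 captured transcript, and the PD-1 inhibitor library held 7967 barcodes with 10875248. After filters 9522 and 7644 nuclei remained, with medians of 1012 and 1055 UMIs, and 47 barcode sequences occurred in both libraries. Clustering gave 21 clusters, of which 20 could be named from markers. They cover 10 cell types that are called by the names of the study, endothelial cells (ECs), fibroblasts, cardiomyocytes, macrophage-like and dendritic-like phagocytes (MPs), mural cells, mesothelial cells, T cells, B cells, adipocytes and glial cells, and each is a group of clusters like that type. None of the markers of the first 9 types was at 0 in its own type in either library. The types differ in size, from 2806 and 2504 nuclei for ECs and 2475 and 1969 for fibroblasts to 154 and 16 for adipocytes and 31 and 10 for glial cells, so that values of the last 2 types rest on few UMIs. Levels are given as UMIs per 1000000 UMIs of the cell type (CPM), first for the control and then for the PD-1 inhibitor library. Since CPM takes no account of transcript length, levels are compared between cells and not between genes.

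Tgfb1, the most studied isoform in fibrosis, was found mainly in immune cells and ECs. Its level in MPs was 193 CPM (171 to 219) in the control and 228 (199 to 259) in the PD-1 inhibitor library. T cells stood at 167 (119.6 to 228) and 167 (115 to 234) CPM and B cells at 209.8 (152 to 282) and 164 (87.2 to 280.1) CPM, so that the intervals of the 3 immune types overlapped in both libraries. ECs had 132 (119 to 146) and 146 (132 to 161) CPM, above fibroblasts at 63.9 (55.2 to 73.7) and 73.7 (63.4 to 85.2) CPM in both libraries without overlap of the intervals. Cardiomyocytes had 25.5 and 35.5 CPM, mural cells 42.0 and 31.1 CPM and mesothelial cells, the lowest of the larger types, 10.1 and 7.71 CPM. Because ECs are numerous they held the largest share of all Tgfb1 UMIs, 37.7% (34.7 to 40.7) and 43.2% (40.0 to 46.4), followed by MPs with 24.8% and 23.5% and fibroblasts with 18.3% and 18.8%. Per UMI of the cell type, MPs held 2.25 and 2.40 times and ECs 1.54 and 1.54 times what an even spread over all UMIs would give.

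Tgfb2, the isoform that needs betaglycan most, had another distribution. Mesothelial cells, which form the epicardium and other outer linings, had the highest level of the larger types, 225 CPM (193 to 261) in the control and 224 (196 to 254) in the PD-1 inhibitor library. Fibroblasts had 120.1 (108 to 133) and 135 (121 to 151) CPM, mural cells 91.2 (70.1 to 117) and 118 (89.5 to 153) CPM and ECs 73.9 (64.4 to 84.3) and 74.3 (64.6 to 84.9) CPM. In MPs the gene was nearly absent from the counts, with 7 and 9 UMIs or 5.25 and 8.94 CPM. Fibroblasts held 40.5% (37.2 to 43.8) and 37.7% (34.5 to 41.0) of all Tgfb2 UMIs, ECs 24.7% and 24.0% and mesothelial cells 20.1% and 26.0%, although mesothelial cells gave only 6.53% and 10.1% of all UMIs. A UMI of Tgfb2 was seen in 17.3% (14.0 to 21.0) and 20.3% (16.8 to 24.3) of mesothelial nuclei, at median depths of 1298 and 1724 UMIs, and in 0.318% and 0.793% of MPs at 902 and 966 UMIs. Thinned to 500 UMIs per nucleus, the shares of mesothelial nuclei were 8.75% and 9.31%.

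Tgfb3 was a transcript of fibroblasts, mural cells and mesothelial cells. Its level was 106 CPM (82.9 to 133) in the control and 76.7 (54.0 to 106) in the PD-1 inhibitor library for mural cells, 69.6 (60.5 to 79.7) and 91.0 (79.5 to 104) CPM for fibroblasts and 78.4 (60.1 to 101) and 71.3 (56.0 to 89.5) CPM for mesothelial cells, and the order of the 3 was not the same in the libraries. ECs lay lower at 22.6 (17.5 to 28.7) and 18.7 (14.1 to 24.4) CPM, MPs had 6 and 4 UMIs, and T cells had 0 in both libraries, where 3 UMIs would have given 12.6 and 15.2 CPM. Fibroblasts held 46.8% and 53.2% of its UMIs. Among the 6 larger types, the MPs with most Tgfb1 thus had least Tgfb2, and the mesothelial cells with most Tgfb2 had least Tgfb1.

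**Figure D1:**
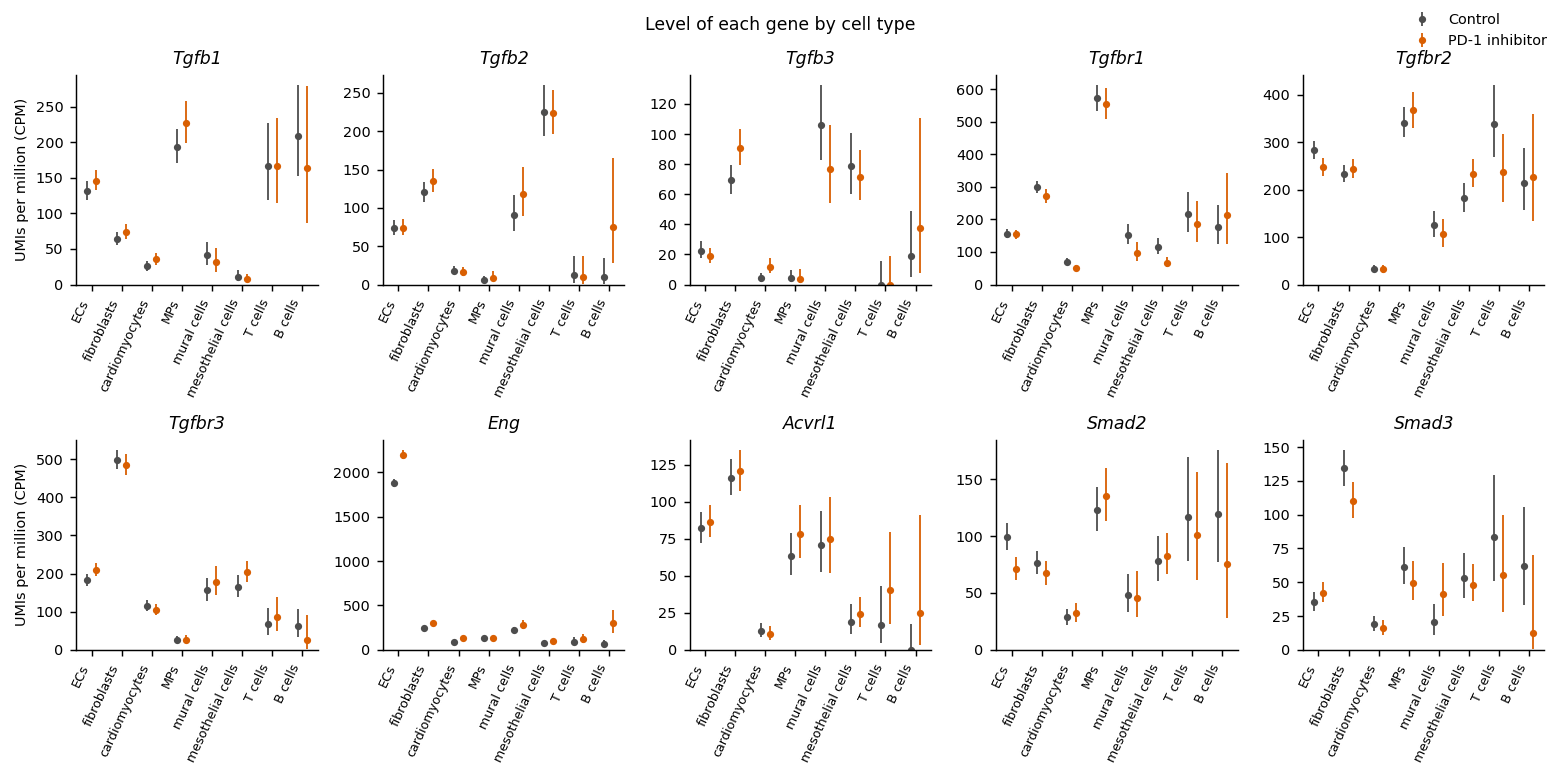
Level of the 10 genes in 8 cell types in CPM (vertical axes from 0), with points for the control (grey) and PD-1 inhibitor (orange) library and bars for exact 95% Poisson intervals; adipocytes and glial cells are left out because of their few nuclei. Tgfb1 is highest in MPs, T cells and B cells, Tgfb2 in mesothelial cells, Tgfbr3 and Smad3 in fibroblasts and Eng in ECs, and cardiomyocytes have 33.4 and 32.5 CPM of Tgfbr2.

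Within ECs the ligands differed between clusters. Tgfb2 stood at 11.9 (5.93 to 21.3) and 16.9 (8.43 to 30.2) CPM in the capillary-like cluster, 77.2 (63.9 to 92.4) and 80.3 (67.6 to 94.6) CPM in the endocardial-like cluster, 172 (125 to 230.0) and 146 (98.6 to 209) CPM in the lymphatic-like cluster and 293 (209 to 398) and 161 (104 to 237) CPM in the valve endothelial-like cluster. The capillary-like nuclei thus lay below each of these 3 clusters without overlap of the intervals, in both libraries. For Tgfb1 the capillary-like and endocardial-like clusters were close, at 129 (106 to 154) and 155 (126 to 188) and at 118 (101 to 136) and 111 (95.8 to 127) CPM. Valve endothelial-like nuclei had 278 (197 to 381) and 251 (178 to 343) CPM of Tgfb1, above the endocardial-like cluster in both libraries. Lymphatic-like nuclei had 157 and 283 CPM, from 41 and 58 UMIs, and arterial-like nuclei 125 and 268 CPM, from 14 and 27 UMIs. The valve endothelial-like cluster thus had the highest value in the control library only. Tgfb3 was highest in the lymphatic-like cluster at 107 (71.1 to 155) and 63.3 (33.7 to 108) CPM and the valve endothelial-like cluster at 87.8 (45.3 to 153) and 38.6 (14.2 to 84.0) CPM, whose intervals overlap, against 7.56 (3.04 to 15.6) and 13.8 (6.32 to 26.2) CPM in capillary-like nuclei.

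Fibroblasts formed a large cluster led by Rgs17 and Fbn2, a cluster with the markers of Pi16 fibroblasts, which lie around vessels and in the adventitia, and a small valve interstitial-like cluster. Tgfb1 was higher in the Pi16 cluster, 120.1 CPM (98.8 to 145) in the control and 106 (87.1 to 128) in the PD-1 inhibitor library, than in the Rgs17 Fbn2 cluster with 40.4 (31.8 to 50.4) and 45.1 (34.3 to 58.3) CPM. The Pi16 cluster held 58.1% and 59.6% of the fibroblasts' Tgfb1 UMIs while making up 27.5% and 35.9% of their nuclei. Of the UMIs of all genes and nuclei, the Pi16 cluster gave 7.64% and 9.99% and all fibroblasts 24.7% and 24.1%. Tgfb3 differed less between these clusters, with 77.9 and 103 CPM in the Pi16 cluster and 65.5 and 77.0 CPM in the other. Among mural cells, Tgfb2 and Tgfb3 were both higher in smooth muscle-like nuclei, at 226 (156 to 318) and 312 (206 to 454) CPM for Tgfb2 and 219 (150.0 to 309.6) and 219.6 (132 to 343) CPM for Tgfb3, than in pericyte-like nuclei with 55.1 (37.2 to 78.6) and 75.8 (51.1 to 108) and 75.3 (54.0 to 102) and 45.5 (26.9 to 71.8) CPM. MPs split into macrophage-like and dendritic-like nuclei, whose Tgfb1 levels of 194 (169.6 to 222) and 222 (192 to 256) and 188 (132 to 260.2) and 259 (182 to 359) CPM overlapped.

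**Figure D2:**
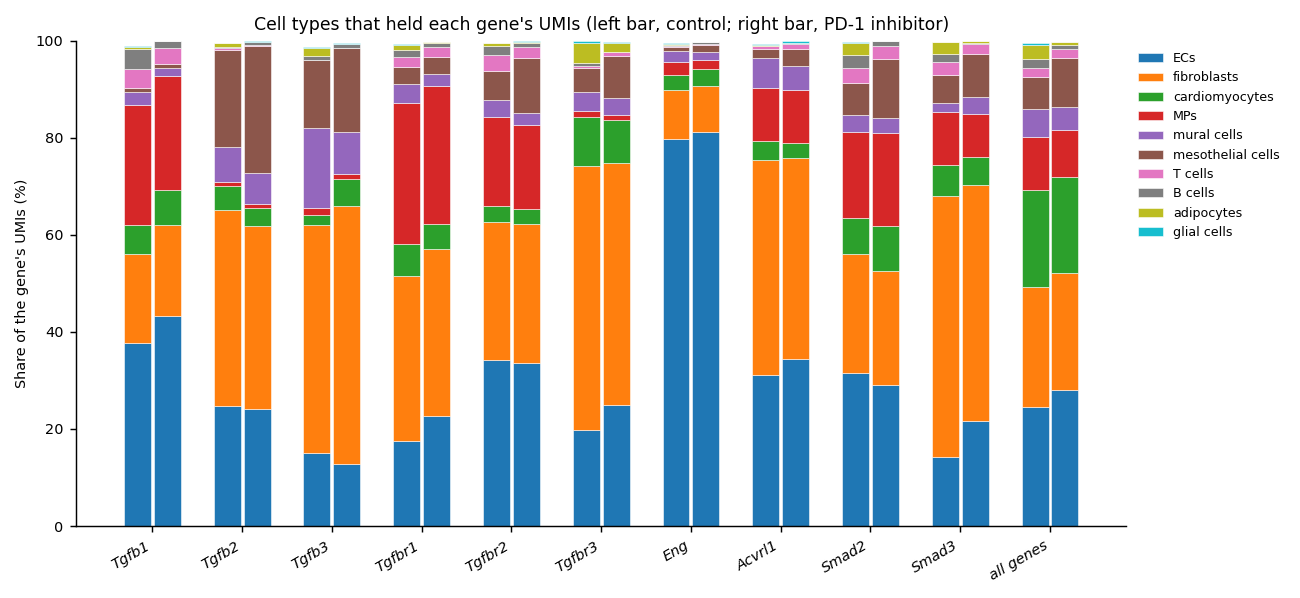
Share of each gene's UMIs (vertical axis, percent) held by each of the 10 cell types, in stacked bars for the control (left) and PD-1 inhibitor (right) library, with all genes together as the last pair of bars; the rest up to 100% lies in the unnamed cluster. ECs hold 79.7% and 81.2% of Eng UMIs, fibroblasts 54.3% and 49.8% of Tgfbr3 UMIs and cardiomyocytes 3.30% and 3.11% of Tgfbr2 UMIs.

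The receptors that carry the TGF-beta signal were read next. Tgfbr1, the type I receptor kinase, was highest in MPs at 572 CPM (532 to 614) in the control and 554 (509 to 602) in the PD-1 inhibitor library, above fibroblasts at 299 (279.6 to 319) and 271 (250.5 to 292) CPM. T cells and B cells overlapped with fibroblasts in at least 1 library, ECs had 156 (142 to 171) and 154 (139.7 to 169) CPM, and cardiomyocytes were lowest with 69.6 (59.5 to 81.0) and 50.3 (41.0 to 61.1) CPM, overlapping with mesothelial cells in the PD-1 inhibitor library. MPs gave 11.0% and 9.78% of all UMIs but 29.1% (27.3 to 30.8) and 28.5% (26.5 to 30.6) of Tgfbr1 UMIs. Within MPs the macrophage-like nuclei had 614 (569 to 661) and 568 (519 to 621) CPM and the dendritic-like nuclei 324 (248 to 415) and 468 (361 to 596) CPM. The valve interstitial-like fibroblasts had 502 (396 to 626) and 696 (576 to 833) CPM and smooth muscle-like nuclei 343 (254 to 452) and 324 (215 to 468) CPM, against 103 and 48.0 CPM in pericyte-like nuclei.

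Tgfbr2, the type II receptor that binds the ligand, had its highest levels in MPs with 341 (310.5 to 374) and 367 (330.1 to 406) CPM, which overlapped with T cells at 339 (269 to 421) and 238 (175 to 316) CPM in the control library and with the few UMIs of B cells in the other. ECs had 283 (264 to 303) and 247 (229 to 266) CPM and fibroblasts 233 (216 to 251) and 244 (225 to 264) CPM. Among the EC clusters the lymphatic-like one stood apart with 714 CPM (616 to 824) in the control and 667 (560.3 to 789) in the PD-1 inhibitor library, against 158 (133 to 185) and 132 (106 to 163) CPM for capillary-like and 282 (256 to 309.8) and 249.8 (227 to 274) CPM for endocardial-like nuclei. This small cluster held 22.3% and 19.3% of the ECs' Tgfbr2 UMIs. For Tgfbr1 the same cluster had only 57.3 (32.1 to 94.5) and 34.1 (13.7 to 70.3) CPM, below the endocardial-like and capillary-like clusters in both libraries. Pi16 fibroblasts had more Tgfbr2 than the Rgs17 Fbn2 cluster, 303 (268 to 341) and 335 (300.3 to 372) against 204 (185 to 226) and 192 (169 to 218) CPM.

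Cardiomyocytes had the lowest Tgfbr2 level of the 6 larger types, 33.4 CPM (26.5 to 41.5) in the control and 32.5 (25.2 to 41.4) in the PD-1 inhibitor library. They gave 20.1% and 19.7% of all UMIs but 3.30% and 3.11% of Tgfbr2 UMIs. They were also lowest of these types for Tgfbr1, Acvrl1, Smad2 and Smad3, with 12.8 and 10.8 CPM of Acvrl1, 28.4 and 32.1 CPM of Smad2 and 19.0 and 15.8 CPM of Smad3, although the interval of the next type overlapped theirs for each of these 4 genes in at least 1 library. A UMI of Tgfbr2 was seen in 4.69% and 4.59% of cardiomyocytes, at median depths of 1406 and 1432 UMIs, against 23.6% and 26.2% of MPs at 902 and 966 UMIs. Thinned to 500 UMIs per nucleus, the shares were 1.64% and 1.01% of cardiomyocytes and 13.1% and 15.2% of MPs.

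A cell needs both kinases to pass on the signal. Nuclei with at least 1 UMI of Tgfbr1 and 1 of Tgfbr2 made up 6.85% (5.51 to 8.39) and 7.59% (5.93 to 9.54) of MPs, 4.12% (3.37 to 4.98) and 3.86% (3.05 to 4.81) of fibroblasts and 2.25% (1.73 to 2.86) and 2.68% (2.08 to 3.39) of ECs. Median depths were 1044 and 1088 UMIs for fibroblasts and 896 and 948 UMIs for ECs. In cardiomyocytes, the deepest of these types, the shares were 0.469% (0.172 to 1.02) and 0.917% (0.441 to 1.68). The product of the shares for each gene alone was 5.84% and 6.37% in MPs, 3.92% and 3.62% in fibroblasts and 2.23% and 2.15% in ECs. At the depth of these libraries a nucleus without a UMI cannot be read as one without the transcript.

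Tgfbr3, which encodes betaglycan, was highest of the 6 larger types in fibroblasts, with 499 CPM (474 to 525) in the control and 486 (458 to 514) in the PD-1 inhibitor library. Fibroblasts held 54.3% (52.4 to 56.2) and 49.8% (47.8 to 51.8) of all its UMIs. ECs stood at 183 (168 to 199) and 210.3 (194 to 228) CPM, mesothelial cells at 166 (139 to 197) and 203 (177 to 233) CPM and MPs at 26.2 (18.3 to 36.5) and 25.8 (16.9 to 37.8) CPM. Fibroblasts therefore had both Tgfb2 and the co-receptor of its product, while MPs, high in Tgfb1, Tgfbr1 and Tgfbr2, had little of either. Within ECs the endocardial-like nuclei had 239 (215 to 265) and 259 (236 to 284) CPM of Tgfbr3 and the capillary-like 111 (90.8 to 135) and 79.9 (59.6 to 105) CPM. Adipocytes, led by the brown fat gene Ucp1, had 310.2 (255 to 373) and 803 (586 to 1074) CPM, the second value from 16 nuclei.

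Eng and Acvrl1 encode the partners endoglin and ALK1. Eng was the member most bound to 1 cell type, since ECs held 79.7% (78.7 to 80.6) and 81.2% (80.3 to 82.1) of its UMIs and had 1881 CPM (1832 to 1931) in the control and 2199.9 (2146 to 2255) in the PD-1 inhibitor library. The endocardial-like cluster had 2746 (2663 to 2829.9) and 3001 (2921 to 3083) CPM, the arterial-like 1487 (1269 to 1731) and 1152 (952 to 1382) CPM, the valve endothelial-like 1448 (1253 to 1664) and 1196 (1031 to 1381) CPM, the capillary-like 944 (882 to 1009) and 923 (851 to 999.7) CPM and the lymphatic-like 539 (453 to 635) and 619 (516 to 736) CPM. The order endocardial, capillary, lymphatic was the same in both libraries, without overlap of the intervals. Endocardial-like nuclei held 75.3% and 83.8% of the ECs' Eng UMIs. Acvrl1 was not restricted in this way, with 116 (105 to 129) and 121 (107 to 135) CPM in fibroblasts and 82.3 (72.3 to 93.3) and 86.4 (76.0 to 97.8) CPM in ECs, and fibroblasts held 44.3% (40.8 to 47.9) and 41.4% (37.8 to 45.1) of its UMIs against 31.1% and 34.4% for ECs. Its order among the EC clusters also differed, since arterial-like nuclei had 287 (196 to 405) and 308 (209 to 437) CPM and the endocardial-like cluster, richest in Eng, 48.4 (38.0 to 60.8) and 56.5 (46.0 to 68.7) CPM. Nuclei with a UMI of both Eng and Acvrl1 made up 4.13% (3.43 to 4.94) and 4.91% (4.10 to 5.83) of ECs, against 0.547% (0.220 to 1.12) and 0.367% (0.100 to 0.937) of cardiomyocytes. In fibroblasts the shares were 2.34% (1.78 to 3.02) and 3.05% (2.33 to 3.91). The product of the shares for each gene alone was 4.19% and 5.18% in ECs and 2.29% and 2.64% in fibroblasts.

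Eng UMIs were also counted in nuclei of other types, and transcripts released from broken cells can enter any droplet. RNA from ECs alone would carry Eng and the 12 EC markers in the proportion of ECs, which was 18.1 and 23.2 Eng UMIs per 100 UMIs of the markers. The same proportion was 17.0 and 24.5 in fibroblasts, 14.3 and 17.0 in cardiomyocytes, 23.7 and 28.2 in MPs, 29.6 and 37.3 in mural cells and 7.02 and 10.9 in mesothelial cells. The markers together stood at 1414 and 1213 CPM in fibroblasts and 616 and 806 CPM in cardiomyocytes, and none of the 12 was at 0 in either type. Eng levels of 241 and 298 CPM in fibroblasts and 88.2 and 137 CPM in cardiomyocytes are therefore given without a statement on expression in these cells.

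**Figure D3:**
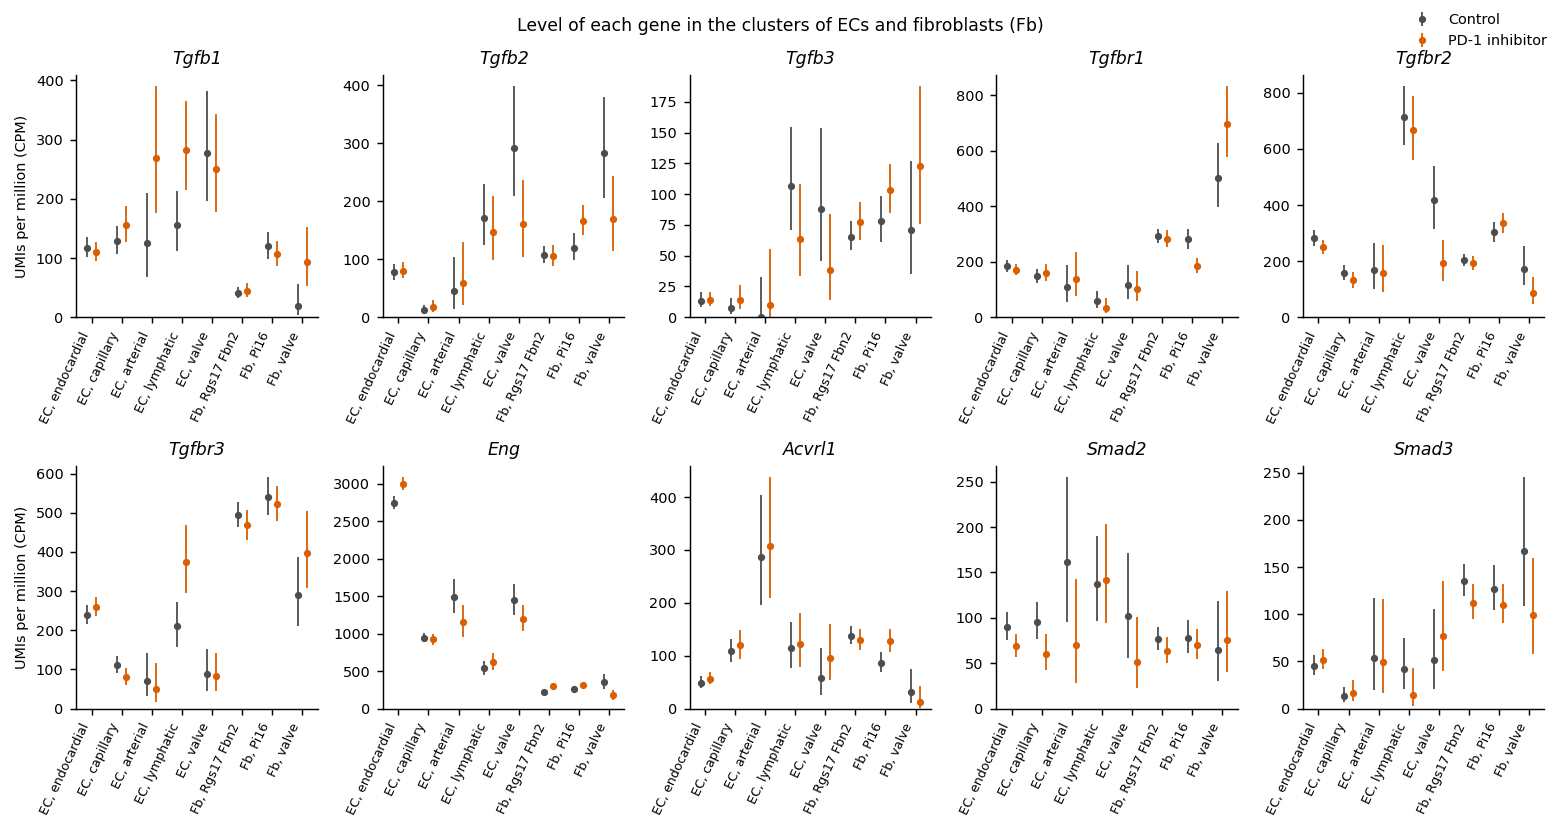
Level of the 10 genes in the 5 clusters of ECs and the 3 clusters of fibroblasts in CPM (vertical axes from 0), with points for the control (grey) and PD-1 inhibitor (orange) library and bars for exact 95% Poisson intervals. Eng is highest in endocardial-like, Tgfbr2 in lymphatic-like and Acvrl1 in arterial-like ECs, and Tgfbr1 reaches 502 and 696 CPM in valve interstitial-like fibroblasts.

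The transducers differed from each other in where they were found. Smad3 was highest in fibroblasts, at 134 CPM (121 to 148) in the control and 110.3 (97.6 to 124) in the PD-1 inhibitor library. T cells came next at 83.7 (51.1 to 129) and 55.6 (27.8 to 99.5) CPM, from 20 and 11 UMIs. Their intervals overlapped those of fibroblasts in both libraries. MPs had 61.5 and 49.7 CPM and mesothelial cells 53.1 and 48.2 CPM. Fibroblasts held 54.0% (50.3 to 57.6) and 48.7% (44.5 to 52.9) of Smad3 UMIs. ECs had 35.4 (29.0 to 42.9) and 42.3 (35.2 to 50.5) CPM of Smad3 and, among them, capillary-like nuclei 13 (6.70 to 22.6) and 16.9 (8.43 to 30.2) CPM, below endocardial-like nuclei with 45.1 (35.1 to 57.1) and 51.4 (41.4 to 63.1) CPM. Smad2 was spread more evenly, with 123 (105 to 143) and 135 (113 to 159.8) CPM in MPs, 99.1 (88.1 to 111) and 71.1 (61.7 to 81.6) CPM in ECs, 76.3 (66.7 to 86.9) and 67.2 (57.4 to 78.2) CPM in fibroblasts and 78.4 (60.1 to 101) and 82.9 (66.3 to 102) CPM in mesothelial cells. Fibroblasts thus held 2.19 and 2.02 times the even share of Smad3 and 0.992 and 0.977 times the even share of Smad2.

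The levels were then compared between the libraries as log2 ratios of PD-1 inhibitor over control. A gene was read in a cell type if the libraries together gave at least 100 UMIs, and a ratio of 0.5 or more in size was counted as past the fold. In ECs 0 of 10 members were past it in either direction, beside 6.99% of the 8961 genes read that were higher and 5.13% that were lower. In fibroblasts the count was again 0 of 10, beside 6.2% higher and 4.29% lower of 8760 genes. In cardiomyocytes 1 of 6 members was higher, Eng, beside 9.91% of genes, and 0 were lower, beside 10.4%. MPs had 0 of 7, beside 7.02% higher and 7.78% lower. In mural cells 0 of 6 were higher, beside 7.81%, and 1 was lower, Tgfbr1, beside 8.55%. In mesothelial cells 0 of 7 were higher, beside 5.28%, and 1 was lower, again Tgfbr1, beside 5.05%. The only member read in T cells, Tgfbr2, was lower, beside 12.5% of genes lower and 10.9% higher, and the only one read in adipocytes, Tgfbr3, was higher, beside 14.9% higher and 26.5% lower. With so few members read, these counts do not set the pathway apart from all genes. The median log2 ratio of the members was 0.04 in ECs and 0.06 in fibroblasts, against 0.00 and -0.01 for all genes read.

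**Figure D4:**
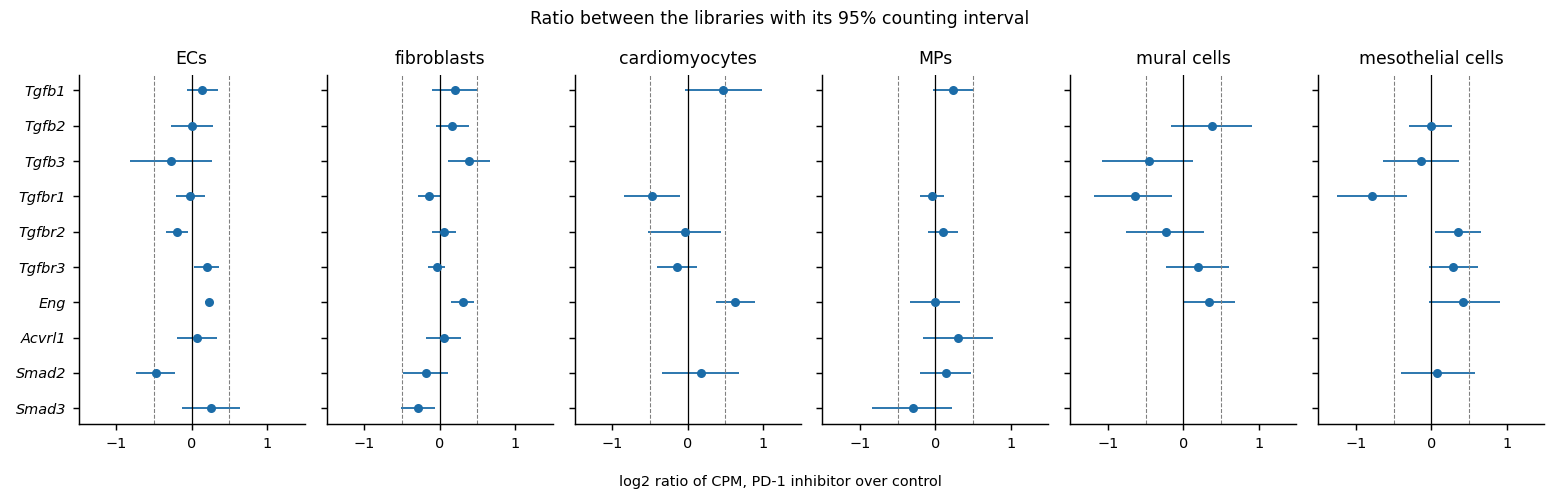
Log2 ratio of the level in the PD-1 inhibitor library over the control library (horizontal axes) for the members to which the libraries together gave at least 100 UMIs, in 6 cell types, with exact 95% counting intervals; the dashed lines mark a ratio of 0.5 in size. In ECs and fibroblasts every point lies between the dashed lines, and the points beyond them are Eng in cardiomyocytes at 0.64 and Tgfbr1 in mural cells at -0.65 and mesothelial cells at -0.78.

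In ECs the log2 ratio of Tgfb1 was 0.14 (-0.06 to 0.35), from 392 and 421 UMIs, and the interval includes 0. In the clusters it was 0.85 (0.25 to 1.47) in the lymphatic-like cluster, from 41 and 58 UMIs, and 1.07 (0.12 to 2.14) in the arterial-like cluster, from 14 and 27 UMIs. Both rest on fewer than 100 UMIs. In the endocardial-like cluster, with most nuclei, it was -0.09 (-0.39 to 0.21), whose interval does not reach that of the lymphatic-like cluster, and in the capillary-like cluster 0.27 (-0.13 to 0.67). Lymphatic-like nuclei were also higher for Tgfbr3, 0.83 (0.32 to 1.36) from 55 and 77 UMIs. The valve endothelial-like cluster, with 98 and 80 nuclei, was lower for Tgfb2, -0.85 (-1.65 to -0.11) from 40 and 25 UMIs, and for Tgfbr2, -1.10 (-1.80 to -0.45) from 57 and 30 UMIs, both under 100 in all. Its median depth was 1215 and 1672 UMIs, and the part of this difference in depth was not tested.

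Among the other members in ECs, Smad2 had the lowest log2 ratio, -0.48 (-0.74 to -0.22), and was lower in the capillary-like cluster at -0.66 (-1.25 to -0.11) and in the endocardial-like cluster at -0.39 (-0.75 to -0.03). Tgfbr2 stood at -0.20 (-0.35 to -0.05) and Tgfbr3 at 0.20 (0.03 to 0.37). Eng was 0.23 (0.17 to 0.28) in all ECs, 0.13 (0.07 to 0.19) in endocardial-like nuclei and -0.03 (-0.18 to 0.12) in capillary-like nuclei. In the smaller clusters it was -0.37 (-0.72 to -0.02) in arterial-like, -0.28 (-0.57 to 0.02) in valve endothelial-like and 0.20 (-0.16 to 0.56) in lymphatic-like nuclei, so the clusters did not share a direction. Endocardial-like nuclei made up 49.8% of ECs in the control and 60.0% in the PD-1 inhibitor library. Given the same mix of clusters in both, the log2 ratio of Eng in ECs was 0.085. A difference in the nuclei that were captured and one in RNA per cell cannot be told apart here.

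In fibroblasts, Tgfb3 was the ligand with the highest log2 ratio, 0.39 (0.11 to 0.67), with 0.40 (-0.04 to 0.86) in the Pi16 cluster and 0.24 (-0.16 to 0.63) in the Rgs17 Fbn2 cluster. Tgfb1 stood at 0.21 (-0.10 to 0.50). It had -0.18 (-0.57 to 0.22) in the Pi16 and 0.16 (-0.36 to 0.67) in the Rgs17 Fbn2 cluster. The valve interstitial-like cluster had 2.10 (0.47 to 4.70), from 3 and 16 UMIs. Pi16 nuclei, richer in Tgfb1 than Rgs17 Fbn2 nuclei, made up 27.5% and 35.9% of fibroblasts. Tgfb2 stood at 0.17 (-0.05 to 0.39), with 0.47 (0.12 to 0.83) in the Pi16 cluster, from 111 and 171 UMIs. It had -0.01 (-0.34 to 0.31) in the Rgs17 Fbn2 and -0.73 (-1.47 to -0.03) in the valve interstitial-like cluster, from 44 and 29 UMIs. Smad3 was lower, -0.28 (-0.51 to -0.06), at like ratios of -0.27 (-0.58 to 0.03) and -0.20 (-0.59 to 0.18) in the Rgs17 Fbn2 and Pi16 clusters. Set against the median of genes of like span it was -0.10. Tgfbr1 was lower in the Pi16 cluster, -0.60 (-0.88 to -0.32) from 259 and 190 UMIs, and not in the Rgs17 Fbn2 cluster, -0.04 (-0.24 to 0.15), while the valve interstitial-like cluster had 0.47 (0.05 to 0.90). Acvrl1 was higher in the Pi16 cluster at 0.56 (0.15 to 0.98) and stood at -0.08 (-0.37 to 0.20) in the Rgs17 Fbn2 cluster. The intervals of these 2 clusters do not overlap for Tgfbr1 and overlap for Acvrl1.

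The members past the fold in other types had the following values. Tgfbr1 had a log2 ratio of -0.65 (-1.18 to -0.15) in mural cells, from 106 and 47 UMIs, with -1.07 (-1.93 to -0.33) in pericyte-like and -0.07 (-0.80 to 0.61) in smooth muscle-like nuclei, each from fewer than 100 UMIs. Smooth muscle-like nuclei, the richer in Tgfbr1, made up 17.5% and 13% of mural cells. In mesothelial cells Tgfbr1 had -0.78 (-1.26 to -0.32), from 92 and 70 UMIs, while Tgfbr2 had 0.35 (0.05 to 0.66) and Tgfb2 -0.01 (-0.30 to 0.28). The median depth of mesothelial nuclei was 1298 and 1724 UMIs. With every nucleus thinned to 500 UMIs, Tgfbr1 stood at -1.28 and Tgfbr2 at -0.039. Of 14 other settings, this was the only 1 in which the Tgfbr2 ratio changed sign. The thinned values come from a single random draw with fewer UMIs and no interval. They therefore cannot separate a part of depth from counting error. In cardiomyocytes Eng had 0.64 (0.37 to 0.90), from 214 and 278 UMIs. The 12 EC markers in cardiomyocytes stood at 616 and 806 CPM, a log2 ratio of 0.39 (0.29 to 0.49), with 11 of the 12 higher, and their part in the Eng ratio was not tested. With the same mix of cardiomyocyte clusters in both libraries the Eng ratio was 0.43, below the fold. Tgfbr2 in T cells had -0.51 (-1.06 to 0.02) from 81 and 47 UMIs, and Tgfbr3 in adipocytes 1.38 (0.84 to 1.88) from 112 and 45 UMIs.

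Over all genes, the log2 ratio depended on the span of the gene from first to last exon. In ECs the median was 0.22 for the 20% of genes with the shortest span, then 0.08, 0.02 and -0.06, and -0.18 for the 20% with the longest. Fibroblasts had medians from 0.18 to -0.18, while in mesothelial cells they ran only from 0.06 to -0.01. Tgfb1, Tgfb3 and Acvrl1 lie in the second group, Eng in the third, Tgfb2, Tgfbr1 and Smad2 in the fourth, and Tgfbr2, Tgfbr3 and Smad3 in the last. Set beside genes of like span, Tgfbr2 in ECs was -0.023 from the median of its group in place of -0.20, and Tgfbr3 in ECs was 0.38 above it in place of 0.20. The mix of EC clusters was not made equal for these values. Smad2 in ECs was -0.42 from the median of its group.

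**Figure D5:**
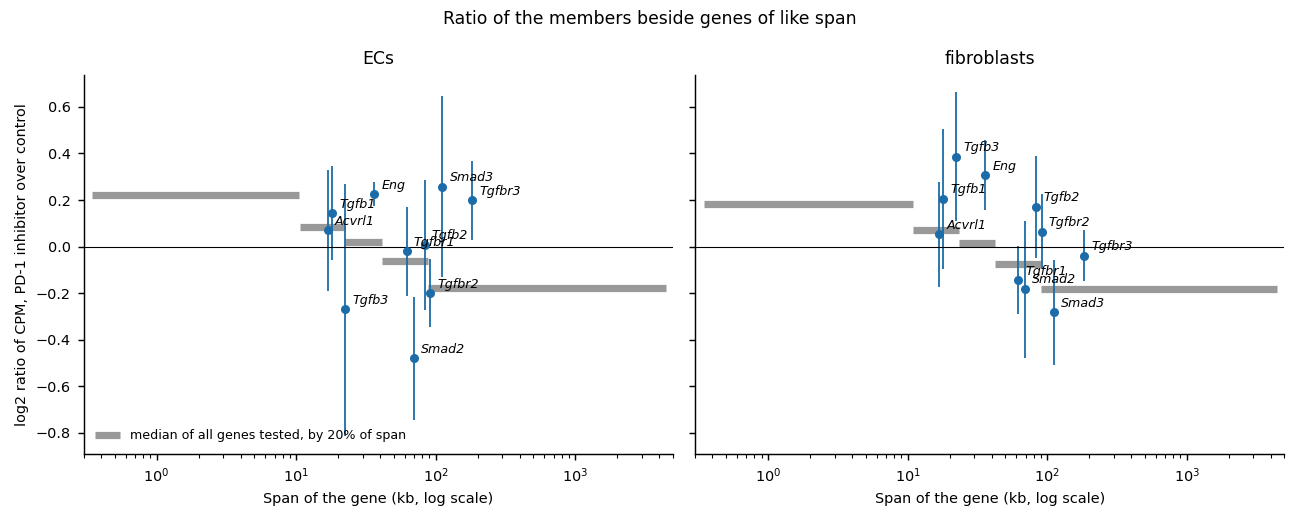
Log2 ratio of PD-1 inhibitor over control (vertical axis) against the span of the gene in kb (log scale) in ECs and fibroblasts, with the 10 members as points with exact 95% counting intervals and the median of all genes read in each 20% of span as grey bars. The medians run from 0.22 to -0.18 in ECs, where Tgfbr2 lies on the bar of its group and Smad2 below, and Tgfbr3, Smad3 and Eng above it.

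Genes that act before and after the members were read from lists. Of 20 genes for the storage and release of the ligands, 16 were read in ECs with a median log2 ratio of 0.10, and 18 in fibroblasts with 0.18. In ECs 1 was past the fold higher and 1 lower, and in fibroblasts 1 higher and 0 lower. For this and the next lists, the shares of all genes past the fold are those given above, 6.99% higher and 5.13% lower in ECs and 6.2% higher and 4.29% lower in fibroblasts. Decorin (Dcn), a small proteoglycan that binds the ligands, had the highest ratio in both, 0.73 (0.67 to 0.79) in ECs and 0.55 (0.53 to 0.58) in fibroblasts, its main source with 8513 and 12484 CPM. The 11 fibroblast markers stood at 2635 and 3681 CPM in ECs, with 5 higher and 6 lower. This sum includes Dcn itself at 1287 and 2137 CPM, and the part of the markers in the Dcn ratio of ECs was not tested. Biglycan (Bgn), a related proteoglycan highest in fibroblasts at 1283 and 1507 CPM, followed in ECs at 0.41 (0.31 to 0.51), and Thbs2, also highest in fibroblasts at 194 and 266 CPM, followed in fibroblasts at 0.45 (0.29 to 0.61). The lowest in ECs were Nrros, which holds latent TGF-beta1 on myeloid cells, at -0.96 (-1.34 to -0.60, from 187 and 93 UMIs), and the integrin chain Itgav, which helps to release the ligand, at -0.42 (-0.64 to -0.20). Nrros was highest in MPs at 1173 and 795 CPM, and the 16 MP markers stood at 819 and 879 CPM in ECs, with 13 higher and 3 lower. Itgav was highest in the few glial nuclei at 541 and 703 CPM. Lowest in fibroblasts were the integrin chain Itgb3 at -0.46 (-1.06 to 0.10), highest in T cells at 66.9 and 60.7 CPM, and the latent TGF-beta binding protein gene Ltbp2 at -0.24 (-0.59 to 0.09), with 59.6 and 50.3 CPM in fibroblasts and 58.2 and 53.5 CPM in adipocytes.

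Of 20 genes for SMADs and for brakes on the pathway, 18 were read in each type, and the median log2 ratio was 0.05 in ECs and 0.03 in fibroblasts. In ECs 2 were past the fold higher, the corepressor gene Tgif1 at 0.73 (0.18 to 1.31, from 45 and 73 UMIs) and the pseudoreceptor gene Bambi at 0.61 (0.13 to 1.11, from 61 and 91 UMIs), and 0 were lower, beside 6.99% and 5.13% of all genes. Smad1 and the adaptor gene Dab2 were lowest in ECs, at -0.38 (-0.57 to -0.20) and -0.24 (-0.39 to -0.10). In fibroblasts 1 was past the fold, Strap, whose product binds the receptors, at 0.51 (0.07 to 0.95, from 82 and 97 UMIs), with Bambi next at 0.35 (-0.15 to 0.86), and 0 were lower, beside 6.2% and 4.29%. Smad4, the partner of SMAD2 and SMAD3, had the lowest ratio in fibroblasts, -0.38 (-0.63 to -0.13), before Zfyve9, which anchors SMAD2, at -0.22 (-0.46 to 0.01).

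ENG and ALK1 also serve other ligands, of which BMP9 (Gdf2) and BMP10 bind them most strongly. Of 6 genes for these ligands and their receptors, 3 were read in ECs and in fibroblasts and none was past the fold. Acvr2a was lowest, at -0.48 (-0.74 to -0.22) in ECs and -0.35 (-0.67 to -0.03) in fibroblasts, Acvr1 stood at -0.14 (-0.32 to 0.03) and -0.15 (-0.41 to 0.10), and Bmpr2 at 0.04 (-0.06 to 0.14) and 0.03 (-0.13 to 0.18). The ligand genes had too few UMIs for a ratio in these types and are named after their values were seen. Gdf2 had 44 and 48 UMIs in all nuclei kept, of which 39 and 40 lay in mesothelial cells, a level of 49.3 (35.1 to 67.5) and 38.5 (27.5 to 52.5) CPM. Bmp10 had 62 and 14 UMIs, of which 49 and 7 lay in the atrial-like cardiomyocytes, a level of 812 (601 to 1073) and 83.5 (33.6 to 172) CPM over 41 and 46 nuclei. In the adult heart Bmp10 is known as a transcript of the right atrium, and the share of each chamber in the tissue is not given in the sources used here.

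The last list held 30 transcripts that TGF-beta is known to induce in some cell type. Of these 21 were read in ECs, where 3 were past the fold higher and 2 lower, beside 6.99% and 5.13% of all genes, with a median log2 ratio of 0.14. In fibroblasts 25 were read, of which 5 were higher and 3 lower, beside 6.2% and 4.29%, with a median of 0.04. In ECs the highest were Lox, which crosslinks collagen, at 0.83 (0.48 to 1.19, from 108 and 187 UMIs), and Id2, which encodes a helix-loop-helix protein that does not bind DNA, at 0.63 (0.49 to 0.76), with the collagen gene Col5a1 also past the fold at 0.54 (0.12 to 0.97). Col5a1 had 27.7 and 40.2 CPM in ECs and was highest in fibroblasts, at 530 and 544 CPM. The fibroblast markers counted in ECs are given above, and their part in the Col5a1 ratio was not tested. In fibroblasts the highest were the transcription factor gene Snai2 at 1.11 (0.64 to 1.60, from 59 and 106 UMIs) and the NADPH oxidase gene Nox4 at 0.78 (0.57 to 0.98), and the others past the fold were Id2 at 0.65 (0.38 to 0.92), Lox at 0.60 (0.25 to 0.97) and Id1 at 0.52 (0.15 to 0.89). Of the collagen genes in fibroblasts, chosen after their values were seen, Col1a1 stood at 0.07 (0.01 to 0.14) and Col3a1 at 0.09 (0.05 to 0.13). Junb was lowest in both types, at -1.57 (-1.78 to -1.37) in ECs and -1.54 (-1.76 to -1.32) in fibroblasts. It encodes an AP-1 factor of the immediate early class. Acta2, a smooth muscle actin gene, followed in ECs at -0.57 (-1.18 to 0.01), where the 11 mural markers stood at 314 and 270.3 CPM, with 4 higher and 7 lower. In fibroblasts the fibronectin gene Fn1 was also past the fold, lower at -0.52 (-0.70 to -0.35). The members of this list did not share a direction in either type.

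For each member up to 3 of the genes with the most similar pattern are given, taken by Pearson's r of log2(CPM + 10) over the 20 named clusters in both libraries, 40 points in all, among 8685 genes with at least 500 UMIs. The points of a library share its depth and its free RNA, and r is given as a description. Tgfb2 and Tgfb3 were among each other's 3 most similar genes, with an r of 0.80. For Tgfb1 they were Gnai2 (0.84), Sh3bgrl3 (0.83) and Gvin1 (0.81). For Tgfb2 they were Tgfb3 (0.80), Zc3h12b (0.79) and Pkd1 (0.78), and for Tgfb3 Sema5a (0.83), Tgfb2 (0.80) and Rbms3 (0.77). Among the receptors, Tgfbr1 was most like Myo9a (0.80), Pias1 (0.78) and Slc41a2 (0.76), Tgfbr2 like Cd47 (0.83) and Casp4 (0.83) and Acvrl1 like Pros1 (0.85), Pea15a (0.84) and Klf6 (0.78). Of the co-receptors, Tgfbr3 was most like Nfia (0.82), Rora (0.80) and Nedd4 (0.78), and Eng like Ephb4 (0.89), Ptprb (0.87) and Adcy4 (0.87), of which Ephb4 encodes a receptor of venous endothelium and Ptprb, an endothelial phosphatase, is also 1 of the EC markers used here. Smad2 was most like Mfsd14b (0.79), Zc3hav1 (0.78) and Cmtm6 (0.77) and Smad3 like Klhl26 (0.80), Disp1 (0.74) and Nupr1 (0.71).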

How the data were processed

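Nuclei of the heart were profiled by single-nucleus RNA sequencing with the GEXSCOPE kit, in 1 control and 1 PD-1 inhibitor library. The values used are counts of UMIs per gene and nucleus, which the authors deposited as whole numbers without normalization, with all barcodes they had kept. The submitters' processing notes name the builds GRCm38 and mm10. The aligner, the counter and the use of strand are not given in the sources used here.

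Nuclei with fewer than 200 genes or more than 20% of their UMIs from mitochondrial genes were dropped, and doublets called by Scrublet within each library were removed (592 in the control and 308 in the PD-1 inhibitor library). Counts were scaled to 10000 UMIs per nucleus and log transformed, 2000 variable genes were chosen without the 10 members, and each was scaled to unit SD with values held at 10 or less. Leiden clustering at resolution 1 used 30 principal components and 15 neighbours (scanpy 1.11.5, leidenalg 0.10.2, scikit-learn 1.9.0). The scaling of genes and the tool for clustering were chosen after the data were seen. Clusters were named from marker lists, with at least 3 markers of a name detected in 5% of nuclei or more and at least 2 times the level of the other nuclei. The unnamed cluster was of proliferating nuclei (32 and 13) and was left out of the levels by type.

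UMIs were summed by cell type, cluster and library. Levels carry exact Poisson intervals, shares carry Clopper-Pearson intervals, and ratios between the libraries carry exact conditional binomial intervals (numpy 2.4.6, scipy 1.17.1). For the ratio itself 0.5 UMI was added to each count, and the interval was taken from the counts with nothing added. Intervals are at 95%, cover counting error only, and do not include differences between hearts. Since each condition has 1 library, replicates could not be compared and neither tests nor standard errors were computed. The ratio was tried on simulated counts with known changes. Shares of nuclei were also computed after each nucleus was thinned to 500 UMIs, leaving out shallower nuclei. Gene positions come from GENCODE vM21, which held 32522 of the 32589 gene identifiers, and promoter sequences from RefSeq, which had an entry for 6 of the 10 members.

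All 10 members are named. From each of 4 further lists of the pathway, the 2 genes with the highest and the 2 with the lowest log2 ratio in ECs and in fibroblasts are named, and the exceptions are given as such. A few genes that these rules pick are not reported here. The members, lists and markers were chosen with earlier results of these data known. Figures were drawn with matplotlib 3.10.9 in Python 3.11.15.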

Additional observations from a re-analysis of the deposited data

How the results depend on the processing

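Levels and shares of UMIs moved beyond their counting intervals in 56 of 1320 and 134 of 1080 recomputed values, and none of Eng in cardiomyocytes, Tgfbr1 in mural cells and Tgfbr1 in mesothelial cells changed sign. Tgfbr2 in T cells and Tgfbr3 in adipocytes were not recomputed. Of the 280 recomputed log2 ratios in ECs and fibroblasts 8 moved beyond their interval. With every nucleus thinned to 500 UMIs, Tgfbr2 in ECs was -0.42, Tgfb2 in fibroblasts -0.075 and Smad2 in fibroblasts 0.26, and the cause was not tested. Against the median of genes of like span, Tgfbr2 was -0.023 and Tgfbr3 0.38 in ECs, and Tgfbr2 was 0.25 and Tgfbr3 0.14 in fibroblasts. With the same mix of clusters, Eng in ECs was 0.085. In cardiomyocytes, MPs, mural and mesothelial cells 8 of 364 moved, of which thinning moved Tgfb1 in cardiomyocytes to -0.13 and Tgfbr2 there to -0.74, Tgfbr1 in MPs to 0.14, and Tgfb3, Tgfbr1 and Tgfbr2 in mesothelial cells to -0.73, -1.28 and -0.039. Tgfbr3 in cardiomyocytes was 0.15 against genes of like span, and Smad2 in MPs 0.48 with at least 500 genes per nucleus.

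Counts of members past the fold are small and moved by single genes. The share of all genes past the fold was not set beside them under these settings, so they are not read as results about the members. With at least 500 genes per nucleus, 1 member was lower in ECs, 2 were higher in cardiomyocytes, 3 were higher and 2 lower in mural cells, and 1 was higher in mesothelial cells. With a fold of 0.3, 1 was lower in ECs, 2 were higher in fibroblasts, 2 were higher and 1 lower in cardiomyocytes, 1 was higher and 1 lower in MPs, 2 were higher and 2 lower in mural cells, and 2 were higher in mesothelial cells. Thinning gave 1 lower in cardiomyocytes, 1 higher in mural cells, and 1 higher and 2 lower in mesothelial cells. In cardiomyocytes 2 were higher with doublets kept, with a limit of 5% on mitochondrial UMIs, and with genes not scaled before clustering (added after the data were seen), and 0 with the same mix of clusters. Leiden resolution 0.5 gave 2 lower in mural cells, and ratios set against genes of like span gave 1 higher and 2 lower there. With at least 200 UMIs asked of a gene, Tgfbr1 was not read and 0 were lower in mural and in mesothelial cells. The mean over nuclei gave 1 higher in mesothelial cells. The cause was not tested, except that the mix of clusters, the fold and the minimum of UMIs act by construction.

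No paired analysis was possible because each condition has 1 library and no test was made. Depth limits the small clusters and the transcripts with few UMIs, for which intervals are wide, and a difference between the libraries cannot be told apart from one between the hearts or the preparations.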
